A study of Mus musculus with 15 samples.

Results

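β-Cryptoxanthin added to a cholesterol- and fat-rich diet (CL+CX, 5 mice) was compared with that diet alone (CL, 5 mice) in the liver, on 10 of the 15 arrays of the series, chosen by the diet in their labels. All mice were male C57BL/6J, 8 weeks old at the start, and ate their diet for 12 weeks. The CL diet was 60% cocoa butter, with 0.5% sodium cholate, 1.25% cholesterol and CRF-1 chow as the remaining 38.23%, and both groups received it. The CL+CX group differed by the added β-cryptoxanthin, a carotenoid of citrus fruit prepared from Satsuma mandarin pulp, given as 0.003% of the diet in the treatment text and the methods and as 0.005% in the sample titles. Total RNA of each liver was labelled and hybridised to 1 GeneChip Mouse Genome 430 2.0 array. The remaining 5 mice, fed CRF-1 chow (NC), are not a side of the comparison. Their signals are set beside the results for reference and share in the estimate of the spread. Mice lived under 12 h of light and 12 h of dark with free access to food. The hour at which each was killed and any fast before it are not given in the sources used here.

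The CL diet is a model of nonalcoholic steatohepatitis, in which fat accumulates in hepatocytes and macrophages gather in the liver. Resident liver macrophages, the Kupffer cells, and monocytes recruited from the blood display complement, lysozyme and Fc receptor transcripts, by which they are recognised in whole liver RNA. Hepatocytes also carry a circadian clock, in which the activators ARNTL and CLOCK or NPAS2 switch on their own repressors of the PER, CRY and REV-ERB families, and PAR bZIP factors such as DBP pass the rhythm on to metabolic genes. Carotenoids with a β-ionone ring, β-cryptoxanthin among them, can be cleaved to retinal, and retinoid X receptors pair with many other nuclear receptors.

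Scaled signals are MAS5 signals brought to a common 75th percentile of 54.1, and log2 differences are given as CL+CX minus CL with their standard error (SE). The defining hepatocyte transcripts were measured at high level in both groups, and 15 of 17 listed hepatocyte markers had a tested probe set. Of 10 exocrine pancreas and gut genes listed, 7 had a probe set and 3 were tested, and none passed the threshold (limma, no member at an unadjusted p under 0.05, and none by the methods' test). Among the control probe sets of the arrays, the log2 difference of the 3′ over the 5′ end of β-actin, a measure of RNA integrity, was 0.82 ± 0.0968 (SD, n = 5) for CL and 1.07 ± 0.101 for CL+CX. No CL+CX array lay within the range of the CL arrays (p = 0.00794 by a two-sided exact permutation of the mice, which cannot go lower, or 0.0317 when adjusted for the 4 array measures). For Gapdh the same difference was -0.45 ± 0.107 on the CL diet and -0.25 ± 0.0861 with β-cryptoxanthin (exact permutation p = 0.0159, adjusted 0.0317). The 75th percentile before scaling and the median after it did not pass such a test (exact permutation p = 0.659 and 0.825). The array of CL replicate 2 correlated with its group at a mean r of 0.941 across probe sets, against 0.957 to 0.962 for the other CL arrays, and lay at -69.9 on the first principal component of the 10 arrays, where the rest lay between -23.2 and 36.4.

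With β-cryptoxanthin, 156 genes were higher and 187 were lower than on the CL diet alone, 1.48% and 1.78% of the 10521 genes tested (limma, adjusted p under 0.05 by Benjamini-Hochberg over all probe sets tested). In all, 343 genes (3.26%) and 637 probe sets (3.13%) passed. The shares of 1.48% higher and 1.78% lower are the background for every list count below. The lists were chosen with earlier results of these data known, so a count above these shares is a description and not a test. Of the genes that passed, 25 were at least 2-fold higher and 72 at least 2-fold lower, and all 4 that differed by at least 4-fold were higher. The median log2 difference of all genes tested was 0.02. In 537 genes (5.1%), called or not, the 5 CL+CX values did not overlap with the 5 CL values, and 115 genes called higher and 128 called lower were among them. The counts depended on single mice: 59 genes passed without CL+CX replicate 3, 68 without CL+CX replicate 2 and 86 without CL+CX replicate 4, whereas 288 passed without CL replicate 2. They also depended on the processing: 21 genes passed with no filter, where all probe sets were tested, and 80 with only both groups fitted. When the β-actin measure, which separates the groups, entered the fit as a covariate, 1 gene (Dbp) passed, and all 637 probe sets kept their sign. The share of this RNA measure in the differences below cannot be told apart from the diet. Of the 80 genes past the threshold that the rule for named genes picked, 25 passed with every array left out in turn, the 25 being Aacs, Arntl, C1qa, Ccn2, Cd72, Cdkn1a, Cebpa, Clec2h, Cyba, Dbp, Gpr146, Nfil3, Ngef, Npas2, Nr1d2, Per3, Ppargc1b, Rnf152, Sox9, Tef, Tnfrsf12a, Tns2, Tubb2a, Vwce and Zfp9.

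**Figure D1:**
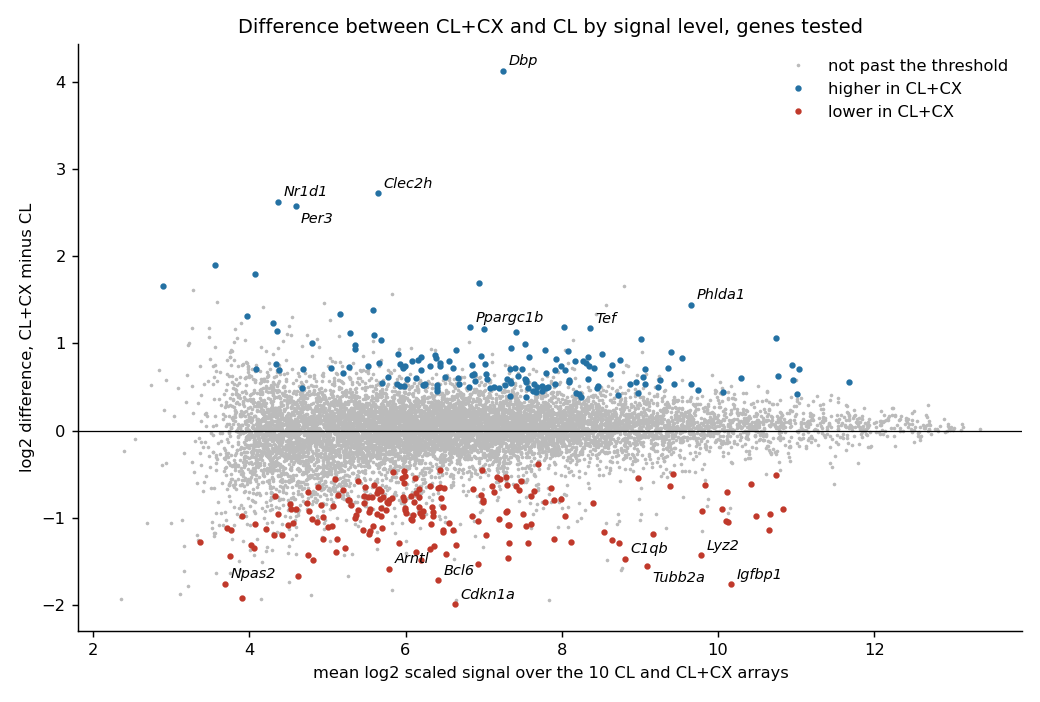
Difference between CL+CX and CL mice for each of the 10521 genes tested. The horizontal axis is the mean log2 scaled signal over the 10 arrays, the vertical axis the log2 difference (CL+CX minus CL), blue points the 156 genes called higher, red points the 187 called lower and grey points the rest. Dbp lies apart at 4.12, and most of the named falls, from Cdkn1a at -1.99 upward, lie at moderate or high signal.

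The largest differences in both directions included genes of the circadian clock. Of 17 core clock genes listed, 15 were tested, of which 5 were higher and 3 lower, and of 13 clock output genes 11 were tested, of which 5 were higher and 2 lower, against 1.48% and 1.78% of all genes. The methods' test called 6 core clock and 5 output genes. It adjusts only its analysis of variance across the 3 diets, not its CL+CX against CL step. With no filter, 1 core clock gene was called higher and 2 lower, and 2 output genes were called higher and none lower. Without overlap in either direction lay 5 and 3 of the core clock genes and 2 and 2 of the output genes, against 2.8% and 2.3% of all genes. The median log2 difference was 0.17 for the core clock and 0.75 for the output genes, with members moving in both directions. Ciart, Nr1d1 and Per3 reached the filter only through the CL+CX arrays, and Npas2 only through the CL arrays. These genes thus entered the counts through the group in which they were high. The promoters of the called members are shown here because the clock acts through 3 short elements, the E-box CACGTG, the REV-ERB and ROR element TAGGTCA and the D-box TTANGTAA, searched on both strands in the 300 bases from 250 before to 50 after each start site. All 15 called clock genes had at least 1 promoter in RefSeq (GRCm38.p6), 18 in all. The E-box occurred in those of Ciart, Cry1, Lonrf3 and Tef, the REV-ERB and ROR element in those of Arntl and Nfil3, and the D-box in that of Per3, while 8 of the 15 genes, Dbp, Nr1d1 and Npas2 among them, held none of these letters in the window. Among the 32851 promoters of all genes, 7.15% held the E-box, 2.61% the REV-ERB and ROR element and 2.32% the D-box, and among promoters of the genes tested 10.1%, 2.09% and 1.56%. The 5 promoters that follow, 5′ to 3′ with the matched elements in capitals, were chosen to show each kind of match: Ciart at chr3:95882179-95882478 (minus strand) with E-boxes starting at -116, -58 and -44 from its start site, Tef at chr15:81811164-81811463 (plus strand) with 1 at -138, Per3 at chr4:151044616-151044915 (minus strand) with D-boxes at -205 and -158, Arntl at chr7:113207261-113207560 (plus strand) with the REV-ERB and ROR element at 30, and Nfil3 at chr13:52980990-52981289 (minus strand) with its reverse complement at -12.
Ciart: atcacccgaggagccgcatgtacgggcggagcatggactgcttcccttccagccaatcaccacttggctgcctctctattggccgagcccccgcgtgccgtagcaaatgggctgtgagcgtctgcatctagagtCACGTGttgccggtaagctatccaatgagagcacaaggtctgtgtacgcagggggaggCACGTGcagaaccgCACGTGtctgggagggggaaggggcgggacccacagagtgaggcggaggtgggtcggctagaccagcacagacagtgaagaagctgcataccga
Tef: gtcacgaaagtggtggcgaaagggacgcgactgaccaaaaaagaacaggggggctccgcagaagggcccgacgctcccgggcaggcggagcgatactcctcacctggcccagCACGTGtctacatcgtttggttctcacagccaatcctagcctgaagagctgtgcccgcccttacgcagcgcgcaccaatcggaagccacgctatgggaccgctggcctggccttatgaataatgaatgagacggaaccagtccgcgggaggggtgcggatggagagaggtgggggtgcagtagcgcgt
Per3: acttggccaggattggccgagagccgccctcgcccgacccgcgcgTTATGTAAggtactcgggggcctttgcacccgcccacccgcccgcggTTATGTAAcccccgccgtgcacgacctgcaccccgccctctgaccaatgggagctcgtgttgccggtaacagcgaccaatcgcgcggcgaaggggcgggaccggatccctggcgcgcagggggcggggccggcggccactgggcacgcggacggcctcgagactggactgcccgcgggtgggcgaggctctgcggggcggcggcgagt
Arntl: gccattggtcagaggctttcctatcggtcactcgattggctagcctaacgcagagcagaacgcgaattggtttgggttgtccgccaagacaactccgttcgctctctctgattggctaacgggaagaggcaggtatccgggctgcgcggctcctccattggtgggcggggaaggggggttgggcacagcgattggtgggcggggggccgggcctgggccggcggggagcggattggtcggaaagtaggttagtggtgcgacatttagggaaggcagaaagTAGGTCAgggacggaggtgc
Nfil3: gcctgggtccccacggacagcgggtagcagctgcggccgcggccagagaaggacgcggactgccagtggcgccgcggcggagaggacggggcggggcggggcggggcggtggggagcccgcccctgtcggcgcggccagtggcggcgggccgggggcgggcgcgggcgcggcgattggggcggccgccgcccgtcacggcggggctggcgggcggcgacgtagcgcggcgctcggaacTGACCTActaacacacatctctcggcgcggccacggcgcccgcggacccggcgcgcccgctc

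Dbp, which encodes a PAR bZIP activator of hepatic output genes, had scaled signals of 37.9, 32.9, 31.8, 21.1 and 76.4 in CL replicates 1 to 5 and of 674, 575, 728, 592 and 616 in CL+CX replicates 1 to 5. Every CL+CX mouse lay far above every CL mouse, and NC mice lay between 36.5 and 76.1. The difference of 4.12 on the log2 scale (SE 0.26, 17.4-fold, limma adjusted p = 1.32e-06) was the largest of all genes tested, and Dbp was past the threshold in all 27 alternatives. Tef, a second PAR bZIP activator, measured 236, 195, 202, 191 and 290 in CL mice and 527, 465, 521, 455 and 514 in CL+CX mice. Its groups did not overlap, and it rose by 1.17 (SE 0.12, limma adjusted p = 0.000338). The third member, Hlf, was higher by 0.85 (SE 0.18, limma adjusted p = 0.0224), with CL replicate 5, at 147, above CL+CX replicate 5, at 133. Nfil3, the repressor that competes with these activators for the D-box, went the opposite way, from 259, 276, 442, 247 and 166 in CL mice to 81.4, 79.2, 121, 80 and 130 in CL+CX mice. It fell by 1.46 (SE 0.24, limma adjusted p = 0.0078) without overlap. Usp2, a deubiquitinase under clock control, was higher by 1.69 (SE 0.35, limma adjusted p = 0.0224), and its CL replicate 5, at 179, lay among the CL+CX mice, at 155 to 279. Alas1, the first enzyme of haem synthesis, was higher by 1.06 (SE 0.26, limma adjusted p = 0.0423) with overlapping groups, and Lonrf3 fell by 0.89 (SE 0.18, limma adjusted p = 0.0216). Wee1, a kinase that restrains cell division, differed by 0.75 (SE 0.29, limma adjusted p = 0.163) and Tsc22d3, a glucocorticoid target, by -0.78 (SE 0.27, limma adjusted p = 0.124).

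Within the core loop, the activator genes Arntl and Npas2 were lower and most repressor genes that passed were higher. Arntl, the partner of CLOCK, measured 97.6, 116, 104, 112 and 61.9 in CL mice and 35.6, 34, 42.4, 16.4 and 40.1 in CL+CX mice, with NC mice at 106 to 139. The groups did not overlap, and Arntl fell by 1.58 (SE 0.23, limma adjusted p = 0.00447). Npas2, which can stand in for CLOCK, had signals of 24.1, 21.5, 16.6, 31.3 and 27.9 in CL mice and of 8.08, 5.1, 8.15, 7.2 and 7.09 in CL+CX mice. Since all 5 CL+CX arrays lay below their median there, its fold is a lower bound of at least 1.93-fold lower (limma adjusted p = 0.00682), and NC mice, at 4.22 to 12, were also low. Clock itself was at -0.30 (SE 0.15, limma adjusted p = 0.292). Of the REV-ERB repressors, Nr1d1 measured 3.31, 4.03, 6.07, 18.3 and 27.1 in CL mice and 56.4, 50.4, 43.9, 57.9 and 48.8 in CL+CX mice. The 5 CL+CX mice lay close together while the CL mice spread from near the floor upward, and the difference was 2.62 (SE 0.68, limma adjusted p = 0.0487). Nr1d2, its paralogue, measured 411, 401, 359, 229 and 441 against 668, 750, 777, 799 and 740 and rose by 1.05 (SE 0.15, limma adjusted p = 0.00447). Per3, a period gene, measured 15.9, 2.67, 12.7, 10.8 and 16.4 in CL mice and 59.4, 63.3, 66.3, 55.6 and 50.4 in CL+CX mice, a rise of 2.57 (SE 0.41, limma adjusted p = 0.0078), with 3 of its 4 probe sets called. None of these 3 repressors overlapped between the groups. Per2 differed by 0.91 (SE 0.33, limma adjusted p = 0.136) and Per1 by 0.05 (limma adjusted p = 0.942).

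The cryptochromes split: Cry2 rose by 0.88 (SE 0.19, limma adjusted p = 0.0244) and Cry1 fell by 1.00 (SE 0.17, limma adjusted p = 0.0128), both without overlap. Ciart, a repressor of the CLOCK and ARNTL complex, measured 4.75, 2.07, 6.62, 11.9 and 10.7 in CL mice, under the median of each CL array, and 46.1, 15.1, 14.7, 35 and 16.9 in CL+CX mice. Its groups were apart and it was at least 1.87-fold higher (limma adjusted p = 0.0491). Rora, Csnk1d, Csnk1e and Bhlhe40 did not pass. Leaving out single mice touched these genes unequally. Dbp, Tef, Nfil3, Arntl, Npas2, Nr1d2 and Per3 passed with each of the 15 arrays left out, whereas Nr1d1 passed in 4 of 15 such fits (limma adjusted p of up to 0.107, without CL+CX replicate 3), Ciart in 2 of 15 (up to 0.118, without CL+CX replicate 4), Usp2 in 12 (up to 0.0611, without CL+CX replicate 3) and Alas1 in 4 (up to 0.11, without CL+CX replicate 3). Counted as lists, 2 to 5 core clock genes were called higher and 3 lower in those fits, and 2 to 5 output genes higher and 2 to 3 lower. The part that the hour of death had in the clock genes was not tested.

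**Figure D2:**
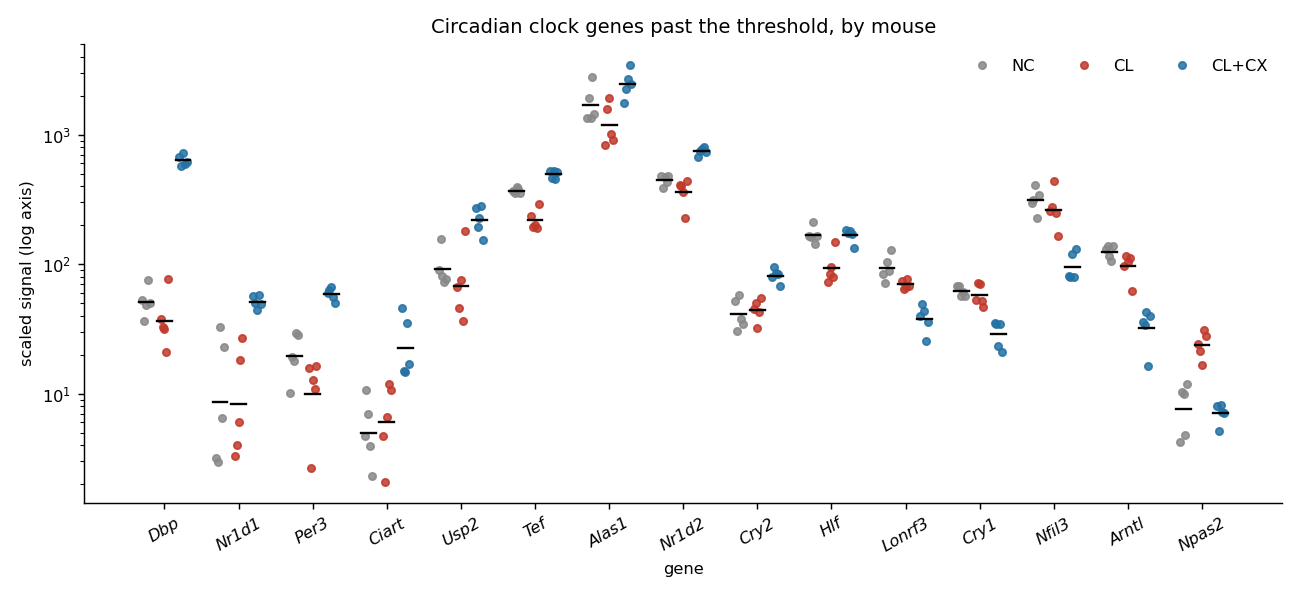
Scaled signal (log axis) of the 15 core clock and clock output genes past the threshold, ordered by their log2 difference, with 1 point per mouse (grey NC, red CL, blue CL+CX, 5 each) and black bars at the geometric mean. Dbp, Nr1d1 and Per3 lie higher in all 5 CL+CX mice than in any CL mouse, and Cry1, Nfil3, Arntl and Npas2 lie lower in all 5.

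Transcripts of macrophages and monocytes were lower in CL+CX mice as a group. Of 22 listed genes 21 were tested, of which 13 fell and none rose. All 21 had a negative difference, and the median was -1.08, against 1.78% of all genes lower and a median of 0.02 (18 of the 21 at an unadjusted p under 0.05, and 16 called by the methods' test). The CL+CX against CL step of the methods' test is unadjusted, and its first step can be passed through the difference between CL and NC mice. Its count is therefore not comparable with the limma calls. In 12 of the 21, the groups did not overlap in the downward direction, as in 2.3% of all genes. Lyz2, which encodes the lysozyme of macrophages, measured 1580, 1226, 1370, 1647 and 1451 in CL mice and 1112, 582, 264, 438 and 601 in CL+CX mice. All CL+CX mice were below all CL mice and, with NC mice at 102 to 250, all were above the NC mice. The difference was -1.43 (SE 0.30, limma adjusted p = 0.0249). C1qb, a chain of the complement starter C1q, measured 748, 646, 727, 825 and 791 in CL mice and 481, 242, 157, 206 and 378 in CL+CX mice and fell by 1.47 (SE 0.31, limma adjusted p = 0.0234), with 2 of 3 probe sets called. C1qa measured 702, 583, 797, 704 and 564 against 328, 231, 196, 284 and 355 and fell by 1.29 (SE 0.22, limma adjusted p = 0.0127), and C1qc fell by 1.26 (SE 0.22, limma adjusted p = 0.0132). In all C1q chains the groups were apart.

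Surface receptors of the same cells followed. Cd14, the coreceptor for lipopolysaccharide, measured 118, 87.7, 244, 146 and 104 in CL mice and 74.3, 35.4, 30.9, 65.6 and 72.5 in CL+CX mice and fell by 1.33 (SE 0.30, limma adjusted p = 0.0293). Adgre1, the gene of the F4/80 antigen, measured 143, 179, 229, 152 and 179 against 112, 73, 60.3, 71.7 and 123 and fell by 1.04 (SE 0.22, limma adjusted p = 0.0251). Neither pair of groups overlapped. Msr1, a scavenger receptor, fell by 1.05 (SE 0.21, limma adjusted p = 0.0216, against 0.13 and 0.279 in its other probe sets) without overlap. Cd68, a lysosomal glycoprotein, fell by 1.42 (SE 0.32, limma adjusted p = 0.0293) with CL+CX replicate 1, at 119, above CL replicate 2, at 80. Tyrobp, an adaptor of myeloid receptors, Cd53, a tetraspanin, Ly86, a lipid-binding immune protein, Ctss, a protease of antigen processing, and Lyz1 completed the 13, between -1.28 and -1.04. The groups of Tyrobp, Ctss and Lyz1 overlapped. Csf1r, the receptor for the macrophage growth factor, was apart between the groups at -0.79 (SE 0.21) but did not pass (limma adjusted p = 0.0538), although 2 of its 3 probe sets did. Nor did Aif1 at -0.86 (SE 0.27) or Lst1 at -1.10 (SE 0.46), at adjusted p of 0.0953 and 0.203.

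The mice differed within the CL+CX group. A score per mouse, the mean log2 difference of the 21 genes from the NC mean, was 1.85, 1.69, 1.99, 2.22 and 1.97 in CL replicates 1 to 5 and 1.5, 0.75, 0.32, 0.74 and 1.27 in CL+CX replicates 1 to 5. CL+CX replicate 1 lay nearest to the CL mice and CL+CX replicate 3 nearest to the NC mice, and the scores did not overlap. Without CL+CX replicate 2, 3 or 4, 3 of the 21 genes passed, without CL replicates 1, 3 or 4, 6 or 7, and without CL+CX replicate 1, 14. With the replicate block 6 passed, with only both groups fitted 7, and with the signals as deposited 4. With no filter, and with the β-actin covariate, none of the 21 passed. The median over the 21 genes lay between -1.22 (without CL+CX replicate 1) and -0.92 (without CL+CX replicate 3) in the fits that left out an array. C1qa and, among the oxidase genes below, Cyba passed in all 15 of them. In whole tissue, fewer macrophages and less of these transcripts per macrophage cannot be told apart.

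**Figure D3:**
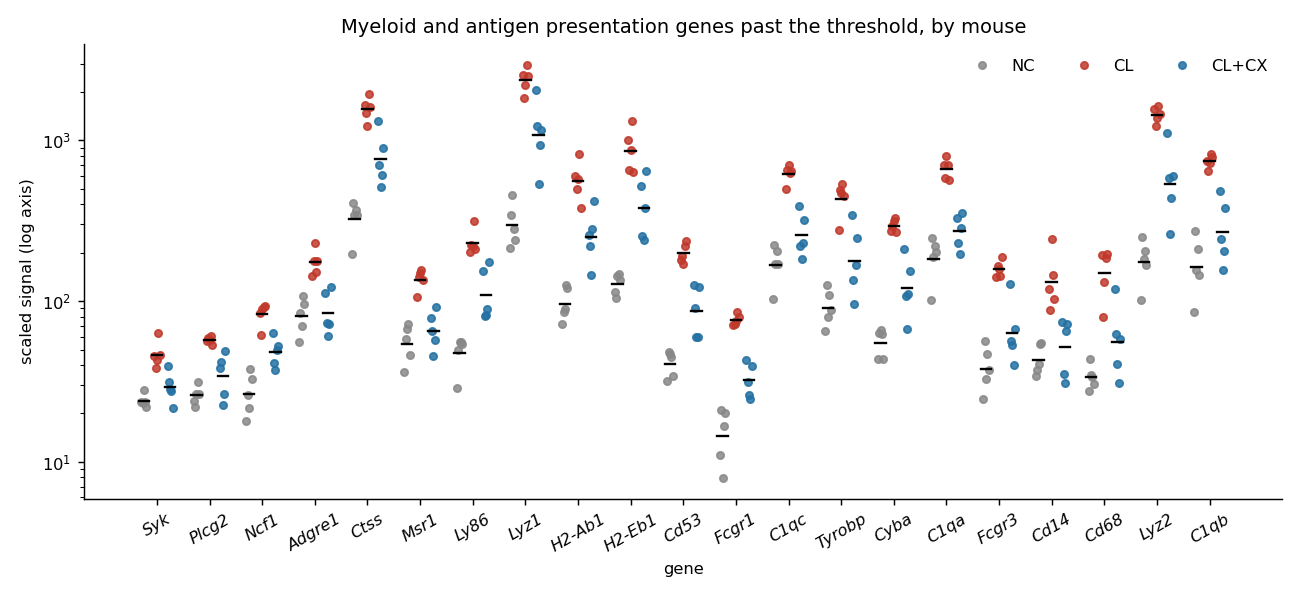
Scaled signal (log axis) of the 21 genes past the threshold in the macrophage and monocyte, MHC class II, Fc receptor and phagocytosis, and NADPH oxidase lists, with 1 point per mouse (grey NC, red CL, blue CL+CX, 5 each) and black bars at the geometric mean. For every gene the CL+CX mean lies between the NC mean and the CL mean, and for Adgre1 it lies close to NC.

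Some genes of antigen presentation and antibody recognition were lower as well. Of 10 MHC class II pathway genes tested, 3 fell, against 1.78% of all genes (median -0.94, all 10 negative, 8 at an unadjusted p under 0.05). These were H2-Eb1, H2-Ab1 and Ctss, and Ctss is also counted in the macrophage list. H2-Eb1 measured 1003, 658, 873, 1317 and 635 in CL mice and 521, 256, 242, 382 and 644 in CL+CX mice and fell by 1.19 (SE 0.27, limma adjusted p = 0.0293). CL+CX replicate 5 lay within the CL range. H2-Ab1, the other β chain, fell by 1.16 (SE 0.26, limma adjusted p = 0.0293) in all 3 of its probe sets, also with overlapping groups. The α chain H2-Aa was at -0.89 (SE 0.24, limma adjusted p = 0.0519, with 1 of its 4 probe sets called) and the invariant chain Cd74 at -1.11 (SE 0.32, limma adjusted p = 0.0699). No MHC class II gene was apart between the groups. Without CL+CX replicate 1, 6 of the 10 passed, and without CL replicate 1 none.

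Of 15 Fc receptor and phagocytosis genes, 4 fell, against 1.78% of all genes (median -0.66). Fcgr3 measured 142, 164, 157, 144 and 188 in CL mice and 128, 56.2, 53.7, 40.1 and 67.4 in CL+CX mice and fell by 1.31 (SE 0.27, limma adjusted p = 0.0224). Fcgr1, the high-affinity receptor for IgG, measured 70.8, 72.1, 75.4, 85.7 and 79.9 against 43, 31.4, 26.2, 24.8 and 39.6 and fell by 1.25 (SE 0.24, limma adjusted p = 0.0194, against -0.44 and 0.351 in a second probe set). Both were apart between the groups. Their downstream partners Plcg2, a phospholipase, and Syk, a kinase, fell by 0.75 (SE 0.18) and 0.68 (SE 0.16), at limma adjusted p of 0.0394 and 0.0361. The groups overlapped in Syk and not in Plcg2. The shared γ chain Fcer1g was at -0.66 (SE 0.22, limma adjusted p = 0.11), the inhibitory Fcgr2b at -0.87 (SE 0.24, limma adjusted p = 0.0594), Fcgr4 at -1.15 (SE 0.31, limma adjusted p = 0.0579) and the phosphatase Inpp5d at -0.48 (SE 0.17, limma adjusted p = 0.123). None of the 15 passed without CL+CX replicate 2, and 7 passed without CL+CX replicate 1.

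Of 6 NADPH oxidase genes, Cyba and Ncf1 fell. The share of all genes tested that were lower was 1.78%, to be set beside each count in this paragraph. Cyba, the membrane subunit p22phox, measured 274, 294, 314, 327 and 270 in CL mice and 211, 107, 67.3, 111 and 154 in CL+CX mice and fell by 1.28 (SE 0.24, limma adjusted p = 0.016). Its groups were apart. Ncf1, a cytosolic subunit, fell by 0.79 (SE 0.21, limma adjusted p = 0.0489) with CL+CX replicate 1, at 63.7, above CL replicate 2, at 61.2. Ncf1 passed in 4 of the 15 fits that left out an array, with an adjusted p of up to 0.135 without CL+CX replicate 3. The catalytic Cybb was at -0.82 (SE 0.25, limma adjusted p = 0.0917) with the groups apart. Among leukocyte adhesion genes, Vcam1, which binds monocytes to endothelium, fell by 0.94 (SE 0.24, limma adjusted p = 0.0439) and Cd44, the hyaluronan receptor, by 0.92 (SE 0.23, limma adjusted p = 0.0446), 2 of 10 tested. Vcam1 passed in 2 and Cd44 in 3 of the 15 fits that left out an array. Of 12 chemokine and receptor genes, Cxcl16 fell by 0.83 (SE 0.18, limma adjusted p = 0.0289), and the adaptor of the inflammasome, Pycard, fell by 0.85 (SE 0.21, limma adjusted p = 0.0408) as the one called of 11 inflammasome and cell death genes. Cxcl16 overlapped between the groups, and it passed in 8 and Pycard in 5 of the 15 fits that left out an array. Pilra, an inhibitory myeloid receptor, fell by 0.96 (SE 0.21, limma adjusted p = 0.0284), Cd72, a coreceptor of B cells and myeloid cells, by 1.39 (SE 0.24, limma adjusted p = 0.013) and passed in all 15 such fits, and the lymphocyte receptor Cd48 was at -1.67 (SE 0.61, limma adjusted p = 0.138).

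Other inflammatory programmes were not called. None of 21 interferon response genes passed (limma; 5 at an unadjusted p under 0.05, and 0 by the methods' test), with a median of -0.13. Their score was 1.14, 1.39, 1.38, 1.85 and 0.83 in CL mice and 0.67, 0.63, 0.68, 1.33 and 2.28 in CL+CX mice. CL+CX replicate 5 had the highest score of all 10 mice while replicates 1 to 3 lay below every CL mouse, and without replicate 5 1 gene passed. Cmpk2 was at -0.87 (SE 0.28, limma adjusted p = 0.0961) and Ifi204 at -0.85 (SE 0.29, limma adjusted p = 0.117). None of 15 Toll-like receptor and NF-kB feedback genes passed (limma; 4 at an unadjusted p under 0.05, and 2 by the methods' test; median -0.30), nor did any of 16 acute phase genes (limma; none at an unadjusted p under 0.05, and none by the methods' test; median -0.02).

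Markers of the liver's other cells were set beside the macrophage genes. Of 11 Kupffer cell genes tested none passed (limma; 5 at an unadjusted p under 0.05, and 1 by the methods' test), but all 11 were negative, with a median of -0.72. Their score ranged from 0.19 to 1.65 in CL mice and from 0.08 to 0.51 in CL+CX mice. Vsig4, a complement receptor of resident macrophages, measured 527, 838, 915, 316 and 646 in CL mice and 491, 301, 254, 203 and 263 in CL+CX mice and differed by -1.07 (SE 0.34, limma adjusted p = 0.0975), and Folr2 by -1.02 (SE 0.36, limma adjusted p = 0.13). CL mice thus spread widely in these genes, more than in C1qa or Lyz2. Of 10 genes of lipid-associated macrophages, Lpl, the lipoprotein lipase, fell by 0.90 (SE 0.22, limma adjusted p = 0.0408) and the tetraspanin Cd9 by 0.80 (SE 0.20, limma adjusted p = 0.041). The groups overlapped in Lpl and not in Cd9. Lpl passed in 4 and Cd9 in 5 of the 15 fits with an array left out (limma adjusted p of up to 0.103 and 0.115, both without CL+CX replicate 3), and the number called of the 10 ran from 0, for example without NC replicate 5, up to 4 when CL+CX replicate 1 was left out. Gpnmb measured 377, 29.2, 70.3, 470 and 365 in CL mice and 376, 155, 39.2, 60.5 and 27.1 in CL+CX mice, overlapping over their whole range, at -1.03 (SE 0.80, limma adjusted p = 0.516). Lgals3, which encodes galectin-3, was at -1.03 (SE 0.38, limma adjusted p = 0.138).

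Sinusoidal endothelial genes shifted in the same direction with 1 call: Clec4g, a lectin of these cells, fell by 0.83 (SE 0.19, limma adjusted p = 0.0349), and 16 of 18 members were negative, with a median of -0.50 and 10 at an unadjusted p under 0.05. Lyve1, the hyaluronan receptor, was at -1.17 (SE 0.31) with an adjusted p of 0.05, not past the threshold. The list's score was 0.22, 0.19, 0.18, -0.22 and 0.20 in CL mice and 0.24, -0.17, -0.79, -0.71 and -0.47 in CL+CX mice, so that CL+CX replicate 1 lay with the CL mice. With 1 array left out, between 0 (for example without CL replicate 1) and 7 (without CL+CX replicate 1) of the 18 passed, and Clec4g passed in 8 of 15 such fits (limma adjusted p of up to 0.0999, without CL+CX replicate 3). Of 17 stellate cell and fibrosis genes, Dcn, the proteoglycan decorin, fell by 0.51 (SE 0.12, limma adjusted p = 0.0388; of its 2 probe sets, 1 was called and the other had the opposite sign), and all 17 were negative (median -0.48). Lum measured 398, 105, 109, 205 and 201 in CL mice and 105, 94.9, 72.9, 44.4 and 88.5 in CL+CX mice and was at -1.21 (SE 0.33, limma adjusted p = 0.0551). The stellate score of CL mice ran from -0.14 (replicate 2) to 1.36 (replicate 1), wider than the -0.01 to 0.63 of CL+CX mice. Of 3 bile duct genes tested, Mmp7, a matrix metalloproteinase, fell by 1.66 (SE 0.32, limma adjusted p = 0.0196), from 89.6, 34.8, 28.2, 55.9 and 33.6 to 17.5, 8.66, 11.4, 17.8 and 16.9, and Sox9, a transcription factor of ducts and progenitors, by 1.13 (SE 0.20, limma adjusted p = 0.0141), both without overlap. Mmp7 reached the filter only through the CL arrays, the group in which it was high. Mmp7 passed in 13 of 15 fits with an array left out (limma adjusted p of up to 0.0564, without CL+CX replicate 3). The methods' test did not call it. Of 20 T and NK cell, 10 B cell and 10 neutrophil genes listed, 6, 5 and 3 were tested and none passed the threshold (limma, with 1, 0 and 0 at an unadjusted p under 0.05, and none by the methods' test). Their medians were -0.55, -0.30 and -0.82, with 5, 3 and 3 members negative. The listed genes that were not tested cannot be judged here. The part that shares of these cells had in the genes below was not tested.

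Hepatocyte markers hardly moved, apart from 2 transcription factors. Alb, Ttr and Apoa1 differed by 0.01, 0.00 and 0.02 on the log2 scale (limma adjusted p of at least 0.948), and the median of 15 genes was 0.04. Cebpa, which encodes C/EBPα, measured 584, 508, 569, 520 and 612 in CL mice and 847, 1010, 1098, 1103 and 929 in CL+CX mice. The groups were apart, NC mice lay between 748 and 918, and Cebpa rose by 0.83 (SE 0.11, limma adjusted p = 0.00266) and passed with every array left out. Foxa2, a pioneer factor, rose by 0.92 (SE 0.21, limma adjusted p = 0.0322), with CL+CX replicate 1, at 185, within the CL range of 118 to 205, and passed in 8 of those 15 fits.

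**Figure D4:**
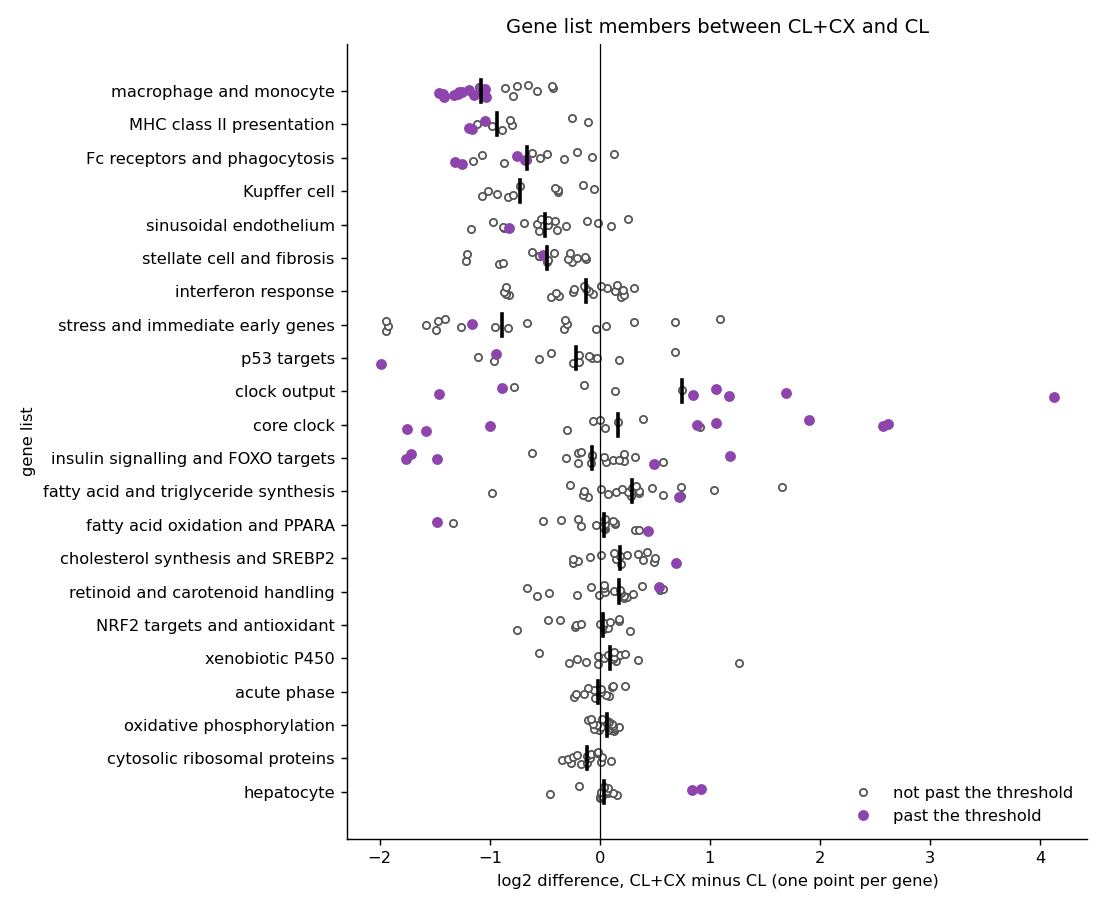
Log2 difference between CL+CX and CL mice of each tested member (1 point per gene) of 22 gene lists. Filled points passed the threshold, open points did not, and black bars are list medians. The macrophage list lies wholly to the left of 0 with a median of -1.08, clock members lie far to both sides, and the hepatocyte, oxidative phosphorylation and acute phase lists lie close to 0.

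Of 21 insulin signalling and FOXO target genes, which respond to feeding, 2 rose and 3 fell, against 1.48% and 1.78% of all genes, and the median was -0.07. With 1 array left out, 1 (CL+CX replicate 3 left out) to 3 (CL replicate 5 left out) were higher and 0 (for example without CL replicate 4) to 3 lower. Igfbp1, a liver-secreted IGF binding protein that insulin represses, measured 1178, 2521, 3448, 2746 and 1500 in CL mice and 489, 438, 546, 1110 and 730 in CL+CX mice. All CL+CX mice were below all CL mice, NC mice lay between 1136 and 4142, and Igfbp1 fell by 1.76 (SE 0.38, 3.39-fold, limma adjusted p = 0.026). Pdk4, the kinase that shuts off pyruvate oxidation in fasting, measured 152, 97.7, 74.2, 319 and 78.4 against 39.8, 41.3, 36.3, 62.8 and 43.2 and fell by 1.48 (SE 0.37, limma adjusted p = 0.0428). Bcl6, a transcriptional repressor, measured 296, 107, 97.3, 129 and 225 against 50.2, 32.2, 39.5, 75.8 and 48.6 and fell by 1.71 (SE 0.40, limma adjusted p = 0.0353). None of these 3 overlapped between the groups. Insr, the insulin receptor, measured 314, 262, 298, 302 and 310 in CL mice and 422, 422, 439, 420 and 379 in CL+CX mice, with NC mice at 502 to 531, and rose by 0.49 (SE 0.09, limma adjusted p = 0.0158), although its second probe set had the opposite sign and the mean of both was at 0.11 (limma adjusted p = 0.664). Ppargc1b, the coactivator PGC-1β, measured 56.2, 80.9, 90.7, 69.9 and 85.3 against 174, 149, 181, 207 and 154 and rose by 1.19 (SE 0.15, limma adjusted p = 0.00264). Both were apart, and Ppargc1b passed with every array left out. Its relative Ppargc1a was at 0.32 (SE 0.20, limma adjusted p = 0.421), the insulin adaptor Pik3r1 at 0.57 (SE 0.18, limma adjusted p = 0.0957) and Grb10 at -0.61 (SE 0.23, limma adjusted p = 0.152). Among the fits that left out an array, Pdk4 passed in 4 of 15 (adjusted p of up to 0.115, without CL+CX replicate 3), Bcl6 in 9 (up to 0.0959), Igfbp1 in 11 (up to 0.0759) and Insr in 14 (0.0531 without CL+CX replicate 3). In the growth hormone list, the targets Cish and Onecut1 were at 1.02 (SE 0.38) and 1.57 (SE 0.60), with adjusted p of 0.15 and 0.156. Hilpda, a lipid droplet protein induced by hypoxia, fell by 1.48 (SE 0.29, limma adjusted p = 0.0192) as the one called of 12 hypoxia genes, from 29.9, 53, 97.9, 56.3 and 26.9 to 12.8, 14.8, 14.9, 24.8 and 19.6.

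Lipid genes showed few calls, in both directions, against 1.48% of all genes higher and 1.78% lower. Of 22 lipogenic genes, for fatty acids and triglycerides, Acaca, the acetyl-CoA carboxylase, passed, higher by 0.72 (SE 0.18, limma adjusted p = 0.04), and 17 were positive (median 0.29, 10 at an unadjusted p under 0.05). Srebf1, their main activator, measured 322, 302, 527, 313 and 356 in CL mice and 591, 486, 595, 550 and 775 in CL+CX mice and was at 0.74 (SE 0.19) just outside the threshold (limma adjusted p = 0.0508). Thrsp ranged from 70.9 to 809 in CL mice and from 412 to 1133 in CL+CX mice (1.66, SE 0.53, limma adjusted p = 0.0991), and Lpin1 was at 1.04 (SE 0.34, limma adjusted p = 0.108). With 1 array left out, between 0 (for example without NC replicate 1) and 4 (without CL replicate 5) of the 22 passed, and Acaca passed in 2 of 15 such fits (limma adjusted p of up to 0.0993, without CL+CX replicate 4). The groups of Acaca overlapped. Aacs, which feeds ketone bodies into lipid synthesis, was outside the list and measured 29.7, 29.3, 29, 26.6 and 31 in CL mice and 57.1, 37.3, 72.5, 63.1 and 62.9 in CL+CX mice. It rose by 0.98 (SE 0.16, limma adjusted p = 0.00876) and passed with each array left out. Of 16 cholesterol synthesis genes, Fdft1, the squalene synthase, rose by 0.69 (SE 0.17, limma adjusted p = 0.041, against 0.208 in its second probe set). Fdft1 passed in 6 of 15 fits with an array left out, and 12 of the 16 genes were positive. Among sterol export genes, Abcg8 measured 217, 265, 318, 176 and 258 in CL mice and 405, 464, 435, 348 and 427 in CL+CX mice, without overlap, and rose by 0.77 (SE 0.16, limma adjusted p = 0.0227). Its partner in biliary sterol secretion, Abcg5, was apart as well at 0.56 (SE 0.16, limma adjusted p = 0.072), as was Abca1 at 0.31 (SE 0.12, limma adjusted p = 0.15), and the sterol carrier Npc2 fell by 0.50 (SE 0.12, limma adjusted p = 0.0349). Of the 14 LXR target and sterol export genes, 1 was thus called higher and 1 lower, whereas the methods' test called 5 higher and 1 lower, and with 1 array left out 0 (for example without CL replicate 1) to 2 were higher.

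In the PPARα pathway, Ppara measured 1007, 776, 943, 885 and 996 in CL mice and 1209, 1305, 1477, 1138 and 1130 in CL+CX mice. It rose by 0.44 (SE 0.11, limma adjusted p = 0.0428) in all 3 of its probe sets, without overlap, and passed in 1 of the 15 fits with an array left out. Of 20 genes of the list, Ppara was the one called higher and Pdk4 the one called lower, the median was 0.04, and the targets Fgf21 and Acot1 were at -1.34 (SE 0.36, limma adjusted p = 0.0538) and -0.52 (SE 0.24, limma adjusted p = 0.251). Of 21 tested genes of retinoid and carotenoid handling, Rxra, the retinoid X receptor α, was called, against 1.48% of all genes higher. It measured 448, 368, 476, 434 and 501 in CL mice and 578, 610, 704, 640 and 695 in CL+CX mice, and rose by 0.54 (SE 0.12, limma adjusted p = 0.0258) with the groups apart. Bco1, the enzyme that cleaves provitamin A carotenoids, differed by 0.22 (SE 0.17, limma adjusted p = 0.533) and Bco2 by 0.25 (SE 0.18, limma adjusted p = 0.472). The retinoic acid targets Cyp26b1 and Rarb were at 0.57 (SE 0.28, limma adjusted p = 0.267) and -0.66 (SE 0.25, limma adjusted p = 0.158), in opposite directions. None of 18 bile acid, 16 NRF2 and antioxidant, 16 xenobiotic P450 and 24 oxidative phosphorylation genes passed (limma; 5, 1, 1 and 0 at an unadjusted p under 0.05, and 0, 1, 0 and 0 by the methods' test), with Hmox1 at -0.75 (SE 0.22, limma adjusted p = 0.07), Cyp8b1 at -1.06 (SE 0.58, limma adjusted p = 0.338) and Cyp2b9 at 1.27 (SE 0.41, limma adjusted p = 0.103).

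The largest fall among the genes that passed was that of Cdkn1a, the p21 inhibitor of cyclin-dependent kinases, which measured 155, 242, 153, 254 and 208 in CL mice and 60.2, 40.9, 30.5, 94.3 and 43.8 in CL+CX mice. NC mice, at 94.2 to 376, lay with the CL mice. Cdkn1a fell by 1.99 (SE 0.33, 3.97-fold, limma adjusted p = 0.01) in both of its probe sets and passed with every array left out. Of the other 13 p53 targets tested, Plk2, a kinase of the stress response, fell by 0.94 (SE 0.21, limma adjusted p = 0.0293), and the list's median was -0.22. Plk2 overlapped between the groups, passed in 8 of 15 fits with an array left out and was not called by the methods' test. Btg2, in the same list, measured 93, 346, 660, 449 and 199 in CL mice and 75.2, 50.8, 48.1, 450 and 489 in CL+CX mice, with both groups spread over nearly the same range.

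Immediate early genes varied widely within each group. Fos measured 68.8, 1163, 417, 981 and 564 in CL mice and 30.8, 20, 15.4, 1485 and 1547 in CL+CX mice: replicates 1 to 3 lay below every CL mouse and replicates 4 and 5 above. The list's score was -0.63, -0.73 and -1.05 in CL+CX replicates 1 to 3 and 1.19 and 0.97 in replicates 4 and 5, against -0.01 to 1.25 in CL mice. NC mice were divided as well, at -0.59 and -0.62 in replicates 1 and 2 and at 0.26, 0.56 and 0.39 in replicates 3 to 5, and CL replicate 1 was the lowest of its group. Of 20 genes tested, only Klf6 passed: it measured 183, 91.5, 108, 178 and 131 in CL mice and 68.7, 46.8, 42.3, 71.3 and 76.6 in CL+CX mice, all apart, and fell by 1.17 (SE 0.24, limma adjusted p = 0.0224) in all 4 of its probe sets. The median of the list was -0.89 (7 at an unadjusted p under 0.05, all lower), with Gadd45b at -1.94 (SE 0.55, limma adjusted p = 0.0654) and Nr4a1 at -1.40 (SE 0.78, limma adjusted p = 0.342). Klf6 was not past the threshold without CL replicate 1 or CL+CX replicates 2 or 3 (adjusted p of up to 0.0691).

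**Figure D5:**
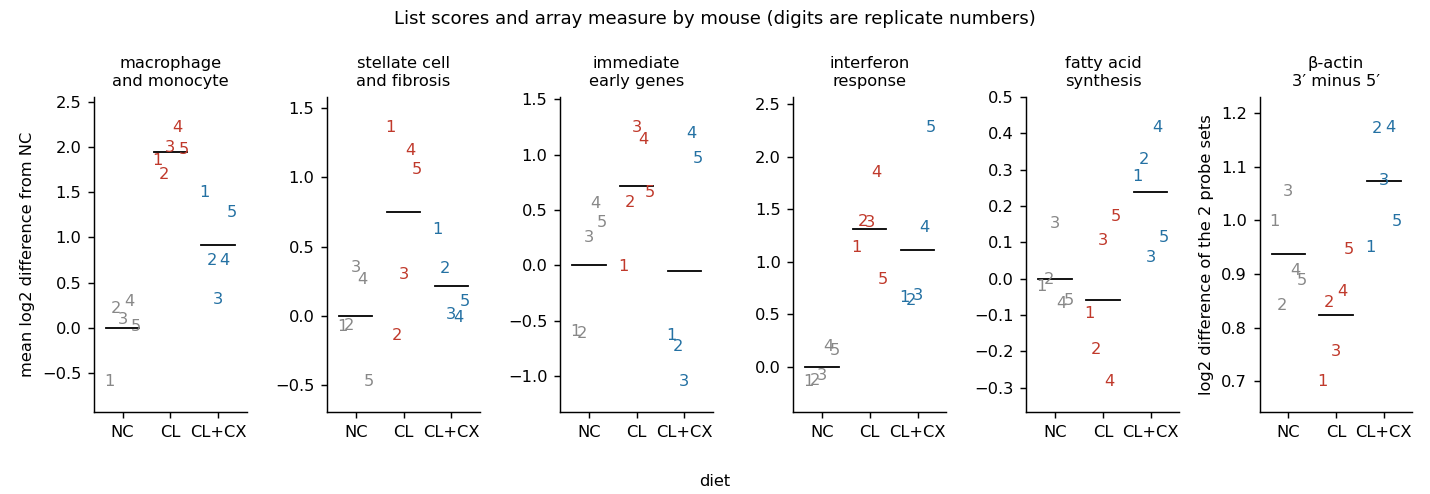
List scores (mean log2 difference of the members from the NC mean) and the β-actin 3′ minus 5′ log2 difference for each mouse of the 3 diets. Digits are replicate numbers, lines are group means, and each panel has its own vertical axis. Macrophage scores do not overlap between CL (1.69 to 2.22) and CL+CX (0.32 to 1.5), immediate early scores spread widely in all 3 groups, with CL+CX replicates 1 to 3 below replicates 4 and 5 and NC replicates 1 and 2 below replicates 3 to 5, and CL+CX replicate 5 is highest in the interferon panel.

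Growth factor and cytoskeletal genes were also among the largest differences. Ccn2, a matricellular protein induced by YAP and TGF-β, measured 303, 219, 115, 208 and 239 in CL mice and 81, 63.7, 60.9, 78.9 and 77.7 in CL+CX mice and fell by 1.53 (SE 0.24, limma adjusted p = 0.00604). Tubb2a, a β-tubulin, measured 1141, 647, 1088, 1260 and 691 against 338, 305, 186, 474 and 357 and fell by 1.55 (SE 0.24, limma adjusted p = 0.00569). Both were apart, and both passed with every array left out. Tuba1a fell by 0.97 (SE 0.23, limma adjusted p = 0.0357), as 1 of 2 tubulins called of 8 tested, against 1.78% of all genes lower. Like the other lists, that of the tubulins was chosen with earlier results of these data known. Tubb5 was at -0.56 (SE 0.15, limma adjusted p = 0.057) with the groups apart. Tnfrsf12a, the receptor of the cytokine TWEAK, fell by 1.39 (SE 0.24, limma adjusted p = 0.0132) in both of its probe sets, and Zfp9 by 1.43 (SE 0.21, limma adjusted p = 0.00447). Rasgef1b was called lower (-1.29, SE 0.32, limma adjusted p = 0.0419), but CL replicate 3, at 266, stood far from the other CL mice, at 71.3 to 75.6.

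In the opposite direction, Phlda1, which growth factors induce, and Spry4, a feedback inhibitor of receptor tyrosine kinases, were higher. Phlda1 measured 531, 739, 235, 536 and 572 in CL mice and 814, 862, 1698, 2057 and 1709 in CL+CX mice, with NC mice at 435 to 534, and rose by 1.44 (SE 0.30, limma adjusted p = 0.0224). Spry4 measured 17.3, 19.1, 29, 16.7 and 35.9 against 66.9, 47.6, 60.5, 67.8 and 45.3 and rose by 1.34 (SE 0.31, limma adjusted p = 0.0357). The groups of both were apart, and Phlda1 passed in 13 and Spry4 in 7 of the 15 fits with an array left out. Clec2h, a C-type lectin, measured 32, 6.16, 34.2, 17.1 and 24.8 in CL mice and 73.5, 120, 198, 161 and 126 in CL+CX mice and rose by 2.72 (SE 0.41, 6.59-fold, limma adjusted p = 0.00569) in all 3 of its probe sets. Other large rises without overlap were Foxq1, a forkhead factor, at 1.38 (SE 0.33), Slc5a6, the multivitamin transporter, at 1.23 (SE 0.28), Vwce at 1.19 (SE 0.18), Tns2 at 1.16 (SE 0.15), the orphan receptor Gpr146 at 1.14 (SE 0.15), Gm4274 at 1.12 (SE 0.24), Ngef at 1.03 (SE 0.19), Dclk3 at 1.01 (SE 0.25) and Rnf152 at 0.94 (SE 0.17), with limma adjusted p of 0.00252 (Tns2) to 0.0445 (Dclk3). Slc5a6 lay under the array median on 2 of 5 CL arrays, and Dclk3 passed in 5 of the 15 fits with an array left out.

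Amino acid transporters and stress genes closed the set, against 1.48% of all genes higher and 1.78% lower. Of 14 transporters tested, Slc38a3, which carries glutamine, rose by 0.71 (SE 0.14, limma adjusted p = 0.0213, against 0.493 in its second probe set), from 1547, 1588, 2051, 1204 and 1955 to 2496, 2844, 3025, 2264 and 2824, and Slc7a2, which carries cationic amino acids, by 0.62 (SE 0.14, limma adjusted p = 0.0284). Neither overlapped between the groups. Among 17 ATF4 and unfolded protein response genes, 2 passed in opposite directions: Chac1, which degrades glutathione, rose by 1.10 (SE 0.25, limma adjusted p = 0.0293) and Ddit3, the CHOP factor, fell by 1.07 (SE 0.24, limma adjusted p = 0.0282). The groups of both overlapped, and Chac1 passed in 8 and Ddit3 in 9 of 15 fits with an array left out. Ddit3 was not called by the methods' test or with the average over its probe sets. None of 12 heat shock genes passed (limma; 4 at an unadjusted p under 0.05, all lower, and 1 called higher by the methods' test), with Hspa1a at -1.74 (SE 0.66, limma adjusted p = 0.159), nor any of 15 cytosolic ribosomal protein genes (limma; 1 at an unadjusted p under 0.05, and none by the methods' test).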

How the data were processed

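Liver total RNA of 15 mice was hybridised singly to GeneChip Mouse Genome 430 2.0 arrays. The deposited signal is a linear intensity that the authors obtained per probe set with MAS5, with arrays at differing overall levels, and detection calls were not used here. Samples were grouped by the diet in their labels.

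Signals were scaled so that the 75th percentile of every array was 54.1, signals under 1 were raised to 1 (11.3% of values), and log2 was taken. Array medians before scaling were 9.48 to 16.7, so genes near them are measured with little precision, and the number of arrays limits all precision. Of 45101 probe sets, 20342 reached the array median on every array of some group and were tested (controls left out), which stands in for the Present filter of the methods. A member can thus have passed through the group in which it was high. Of these, 17851 had 1 symbol in the platform annotation, 534 had several and 1957 had none, and only the first were named. Each of 10521 genes was represented by its brightest tested probe set on average. Other probe sets are reported for some genes only. Among called genes, a second probe set kept the sign but did not pass in, for example, Arntl, Bcl6, Sox9, Alas1, Ddit3, Spry4, Foxq1, Lpl and Lyz1.

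One limma model (version 3.58.1, R 4.3.3) held all 3 diets, with CL+CX minus CL as the contrast, and the Benjamini-Hochberg adjustment ran over every tested probe set at a threshold of 0.05. The labelling protocol gives 1 mouse per sample, so p-values measure the spread between mice. Array measures were compared by exact permutation over 252 arrangements. Where all 5 arrays of a group lay below the array median, only a lower bound of the fold is given. Replicate numbers were not treated as pairs: deviations from the group means correlated at -0.132 to 0.0452 between CL and CL+CX mice sharing a number, and NC mice were not compared in this way. The 48 gene lists and their members were chosen with earlier results of these data known, and they are described by counts and medians without a test. Named are the 20 largest rises and 20 largest falls that passed without overlap, up to 5 called and 2 other members of each list, and genes that the study's text names. The other called clock and macrophage genes, and Clock, Per1, Rora, Csnk1d, Csnk1e, Alb, Ttr, Apoa1, Bco1 and Bco2, lie outside that rule and were chosen after their values were seen.

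Results were recomputed with no filter, a stricter one, a filter by the mean over all arrays, quantile normalization, the signals as deposited, 16 added to every signal instead of the floor, a trend with a robust prior, only both groups fitted, the replicate block, the β-actin measure as a covariate, each array left out in turn, genes represented by the average over their probe sets, and the methods' test, a Welch analysis of variance across the 3 diets in which the Games-Howell test, a Tukey type test for unequal variances, stood in for the Tukey test that the methods name. The fit was tested on simulated data. Promoter sequences are those of RefSeq (GRCm38.p6). Plots used matplotlib 3.10.9. The study's other assays were not analysed here.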

Additional observations from a re-analysis of the deposited data

Results flagged for a closer look

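Of 196 groups of 5 mice checked for a value far from the other 4 (called and named genes, list scores and array measures), 15 held one, where chance gives about 1 in 20. The number given is the gap to the nearest mouse as a share of the group's range, taken on log2 signals for genes, with a limit of 0.71. CL replicate 2 accounted for 7 of the 15: it was lowest in Per3 (0.772), Gm4274 (0.801), Rnf152 (0.768), Insr (0.719) and Ncf1 (0.736), highest in Chac1 (0.822), and lowest in the mean correlation with its own group (0.739). CL replicate 3 was highest in Rasgef1b (0.955) and lowest in Phlda1 (0.711), CL replicate 5 was lowest in Arntl (0.728), and CL replicate 4 was highest in the MHC class II score (0.723) and lowest in the sinusoidal endothelium score (0.91). In CL+CX mice, replicate 4 was lowest in Arntl (0.767), replicate 5 highest in Pycard (0.733) and replicate 3 lowest in Tuba1a (0.838).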

How the results depend on the processing

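Against 637 probe sets and 343 genes called, no filter gave 38 and 21 (more probe sets were tested, and some had no variance at the floor), the signals as deposited 81 and 50, an offset of 16 gave 995 and 539, only both groups fitted 142 and 80, and the β-actin covariate 1 and 1. The replicate block gave 366 and 196. With 1 array left out, probe sets numbered 105 to 967 and genes 59 to 466, in both cases fewest when CL+CX replicate 3 and most when CL replicate 5 was left out. Without CL+CX replicates 2, 4 and 5 and CL replicates 1, 3 and 4, 68, 86, 224, 154, 156 and 157 genes passed. The signals as deposited called 13 genes higher and 37 lower, against 156 and 187 after scaling, and only both groups fitted called 23 higher and 57 lower. The stricter filter, the filter by the mean, quantile normalization, the robust prior and the methods' test gave 788, 523, 684, 826 and 780 probe sets, within 1.5 times the count. All 637 called probe sets kept their sign with the signals as deposited, quantile normalization, the offset of 16 and the covariate. Under the filters, the robust prior, only both groups fitted, the replicate block and the methods' test, the group means are the same. The sign could not change there. With the covariate, the median SE of the called probe sets rose from 0.174 to 0.271 and their median size fell from 0.793 to 0.625. Of 80 named genes past the threshold, 14 passed with no filter, 27 with the signals as deposited, 36 with only both groups fitted, 57 with the replicate block, 63 with the methods' test, and 1 with the covariate. The causes were not tested.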
